A study of Mus musculus with 12 samples.

Results

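Chemokine ligand genes encode small secreted or membrane-tethered proteins that attract leukocytes, and 10 of them were followed in mouse ventricle: Ccl2, Ccl6, Ccl7, Ccl8, Ccl9, Ccl12, Cxcl1, Cxcl10, Cxcl12 and Cxcl16. They were taken by symbol from a table of 39210 genes, as a set proposed with earlier results of these data known, and 9 of the 10 were among the 13960 genes with enough reads to test. Cxcl10 was not. Each of the 9 tested genes also had at least 15 counts in every female hypoxia library, so none entered the test through male hypoxia alone.

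The libraries came from ventricles, snap frozen, of C57BL/6 mice in 4 groups of 3: male normoxia, male hypoxia, female normoxia and female hypoxia. Hypoxic mice had their oxygen lowered in daily steps of 1% over 14 days to 7% and then stayed there for 2 weeks, while normoxic mice breathed 20.9% oxygen for 4 weeks. No allele, transgene or drug is given for any group, and ages, and whether each library is 1 animal, are not given in the sources used here; p-values therefore measure the spread between these libraries. Which ventricle each library holds is also not given. Ventricular cardiomyocyte markers were abundant in all 12 libraries, at a summed 41615 to 62842 CPM (counts scaled to library size, here over tested genes and with TMM factors) over 8 genes.

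Library totals lay between 14915800 and 19397900 estimated counts. Some libraries stood apart. Male hypoxia libraries 2 and 3 had the most atrial cardiomyocyte marker RNA of their group (1732 and 973 CPM, against 505 in library 1), female hypoxia library 3 was also high at 1068, and normoxic libraries lay between 94.9 and 278. Female hypoxia library 1 had more ventricular cardiomyocyte marker RNA (62121 CPM) than libraries 2 and 3 of its group (42936 and 44420). Female normoxia library 3 held 884 CPM of immediate early genes, against 104 to 243 in the 11 others. Each count of members is therefore also given below without male hypoxia libraries 2 and 3 where that changes it. Those fits leave 1 male hypoxia library and keep female hypoxia library 3. In them fewer of all tested genes passed for hypoxia as well, so a lost call is not particular to the members.

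Chemokines fall into families by the spacing of their first cysteines. CC chemokines such as Ccl2, Ccl7 and Ccl12 act through Ccr2 and related receptors and are known for recruiting monocytes, and Ccl6 and Ccl9 are ligands of Ccr1. Among the CXC chemokines, Cxcl1 attracts neutrophils through Cxcr2, Cxcl10 attracts activated T cells through Cxcr3, Cxcl12 retains and guides cells through Cxcr4, and Cxcl16 is a membrane-bound ligand of Cxcr6. In the heart they are made by macrophages, endothelial cells, fibroblasts and other cells, often after NF-kappaB or interferon signalling.

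By RefSeq gene order, the CC members lie in clusters on chromosome 11. Ccl2 is followed by Ccl7, Ccl11, Ccl12, Ccl8 and Ccl1, and Ccl9 lies between Ccl5 and Ccl6, with Ccl3 next. Cxcl16 is on the same chromosome outside these clusters, Cxcl1 and Cxcl10 are on chromosome 5, and Cxcl12 is on chromosome 6. RefSeq promoter sequence (build GRCm38.p6, the 250 bases before the start site) was matched for 7 of the 10 members: Ccl6, Ccl8, Ccl9, Ccl12, Cxcl1, Cxcl10 and Cxcl12. Of these, the 4 CC genes are printed because their transcripts rose in hypoxic males. The windows are chr11:83593088-83593337 on the minus strand for Ccl6, chr11:83578637-83578886 on the minus strand for Ccl9, chr11:82101595-82101844 on the plus strand for Ccl12 and chr11:82114935-82115184 on the plus strand for Ccl8, each written 5′ to 3′ on the strand of its gene. Capitals mark matches to the motifs described after them.
Ccl6: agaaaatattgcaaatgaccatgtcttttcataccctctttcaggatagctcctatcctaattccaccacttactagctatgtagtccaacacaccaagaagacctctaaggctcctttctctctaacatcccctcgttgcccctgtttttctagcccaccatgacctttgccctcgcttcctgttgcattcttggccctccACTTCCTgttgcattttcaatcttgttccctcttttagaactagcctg
Ccl9: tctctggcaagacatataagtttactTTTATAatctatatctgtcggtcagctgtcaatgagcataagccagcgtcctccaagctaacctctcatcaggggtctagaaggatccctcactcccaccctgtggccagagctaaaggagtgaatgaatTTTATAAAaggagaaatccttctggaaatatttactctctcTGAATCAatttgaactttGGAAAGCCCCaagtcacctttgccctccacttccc
Ccl12: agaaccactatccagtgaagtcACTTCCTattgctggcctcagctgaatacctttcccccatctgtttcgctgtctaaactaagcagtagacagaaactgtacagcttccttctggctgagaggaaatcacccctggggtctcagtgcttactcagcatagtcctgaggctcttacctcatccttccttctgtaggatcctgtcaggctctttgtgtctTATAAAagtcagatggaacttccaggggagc
Ccl8: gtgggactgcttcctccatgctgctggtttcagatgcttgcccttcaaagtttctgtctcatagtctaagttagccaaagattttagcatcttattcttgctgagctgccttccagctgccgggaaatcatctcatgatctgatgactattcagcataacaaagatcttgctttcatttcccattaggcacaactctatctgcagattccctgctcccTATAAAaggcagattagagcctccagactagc

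Both strands were searched for TATAAA (the core promoter box of that name), the NF-kappaB motif GGGNNNNTCC, the interferon-stimulated motif GAAANNGAAA, the hypoxia response core in its forms ACGTG and GCGTG, the ETS motif AGGAAGT and the AP-1 motif TGANTCA. Matches may overlap, as do a pair of TATAAA matches on opposite strands in Ccl9. TATAAA began at -31 in Ccl12 and -32 in Ccl8, counted back from the start site, and it occurs in 12.4% of 32851 promoter windows of the same length. Ccl9 held TATAAA at -92, on the other strand at -94 and -224, an NF-kappaB match at -35 and an AP-1 match at -53. Ccl6 held an ETS match at -48 and Ccl12 one at -228. The background shares were 16.5% for the NF-kappaB motif, 6.75% for the AP-1 motif and 7.69% for the ETS motif. The longest run shared by Ccl6 and Ccl9 was 13 bases. Neither hypoxia response core, found in 16.6% (ACGTG) and 28.2% (GCGTG) of windows, had a match in these 4 windows. The interferon-stimulated motif, in 2.98% of windows, also had none there. In Cxcl1 there were NF-kappaB matches at -89, -71 and -70, the last pair overlapping, and an ACGTG match at -196. Cxcl10 held NF-kappaB matches at -159 and -104, an interferon-stimulated match at -213, a GCGTG match at -222 and an AP-1 match at -74. Cxcl12 had no match to any of the motifs. A match only says that these letters are there.

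In hypoxia, 6 of the 9 tested members rose when the sexes were averaged and none fell: Ccl2, Ccl6, Ccl8, Ccl9, Ccl12 and Cxcl16. Over all tested genes 15.0% rose by the same rule, an adjusted p under 0.05 in edgeR's quasi-likelihood test with Benjamini-Hochberg adjustment over all tested genes, which holds for every adjusted p given here unless another tool is named. In males 7 of 9 rose (the same 6 and Ccl7), against 8.47% of all genes. In females 1 of 9 rose, Cxcl16, against 3.97% of all genes. The median log2 fold change of the 9 was 0.69 averaged, 1.67 in males and 0.02 in females, beside medians over all genes of -0.01, 0.01 and -0.02. Without male hypoxia libraries 2 and 3, 5 rose in the average (Ccl12 was lost) and 2 in males, Ccl6 and Ccl9. Scaling by library totals alone, without TMM, shifted the median of all genes up by 0.20 in the average, 0.26 in males and 0.13 in females, and raised the share of upward changes among all averaged calls from 53.9% to 86.7%; folds here are relative to the TMM scale. As this is bulk tissue, a change in the number of cells that make a transcript and a change in RNA per cell cannot be told apart.

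Hypoxic male libraries all lay above the normoxic male libraries for 8 of the 9 tested genes, all but Cxcl12, while this held for 21.5% of all genes. Female hypoxia lay wholly above female normoxia for Ccl2, Cxcl12 and Cxcl16, against 13.2% of all genes. Both held for Ccl2 and Cxcl16, against 7.79%.

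**Figure D1:**
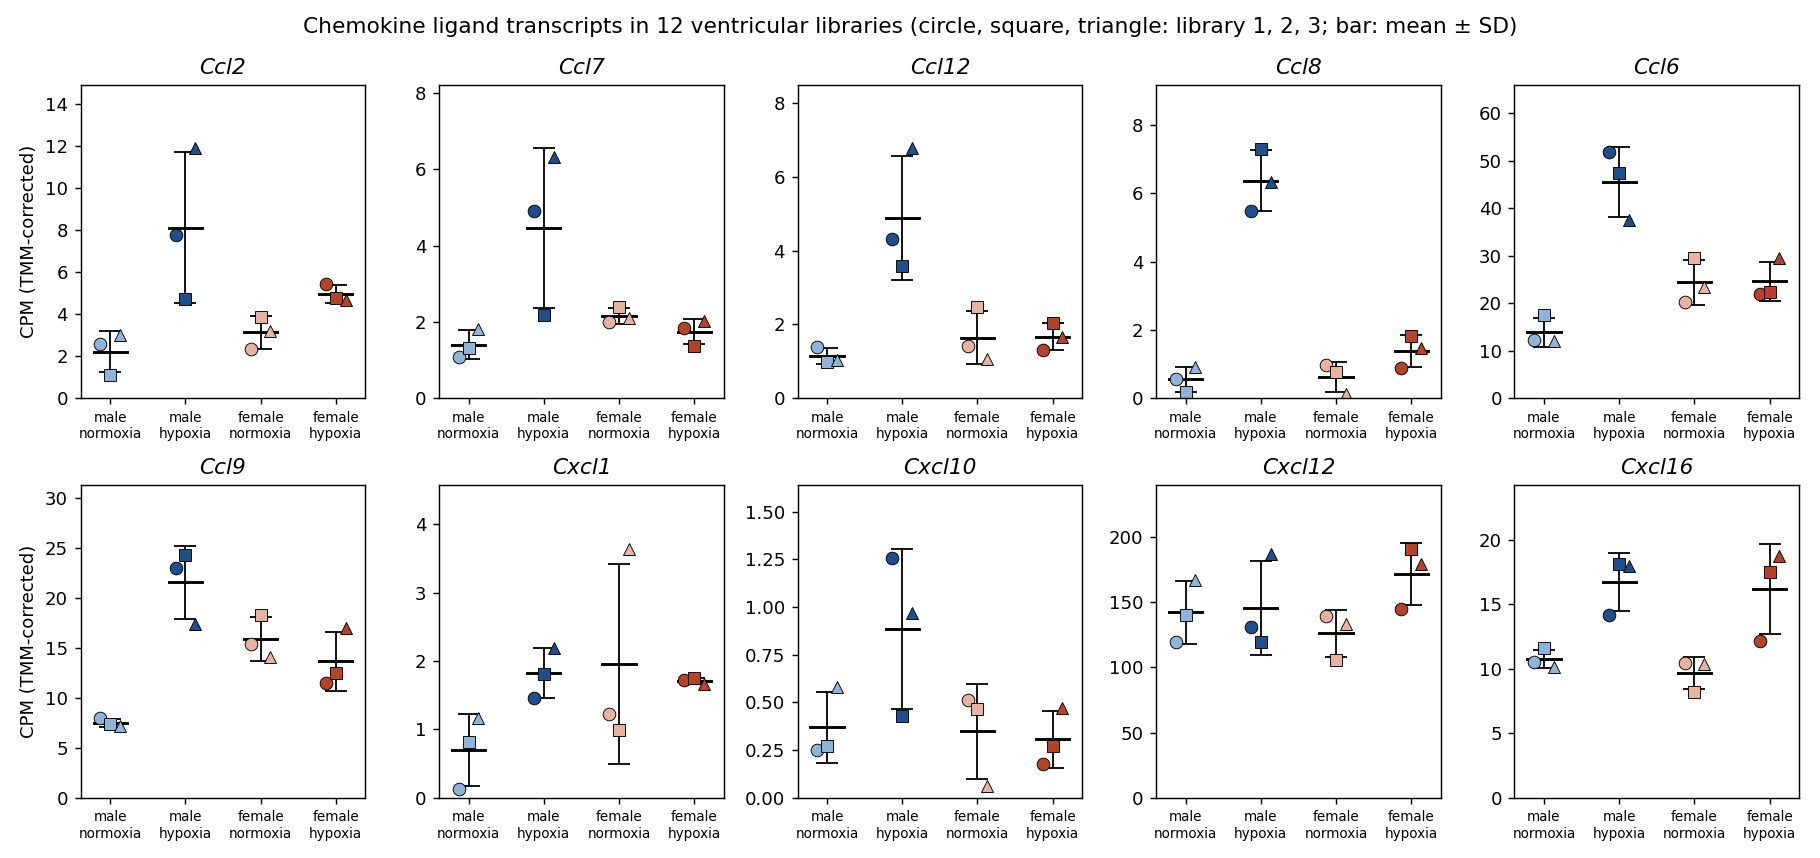
CPM of each chemokine gene in the 12 libraries, by group; symbols are libraries 1, 2 and 3, the thick bar is the mean and the whiskers are 1 SD (n = 3). Hypoxic males stand above normoxic males for every gene except Cxcl10 and Cxcl12, as for Ccl8 with 5.50 to 7.29 CPM against 0.163 to 0.907.

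The Ccr2 ligands came first by role. Ccl2, the main attractant of Ccr2-bearing monocytes, measured 2.58, 1.09 and 2.98 CPM in normoxic males, 7.75, 4.72 and 11.9 in hypoxic males, 2.32, 3.86 and 3.21 in normoxic females and 5.45, 4.77 and 4.68 in hypoxic females. All hypoxic libraries exceeded the normoxic ones of their sex, and male hypoxia library 3 was the highest of all. The log2 fold change was 1.88 ± 0.39 (SE) in males (adjusted p = 0.0116, 3.68-fold) and 1.27 ± 0.27 averaged (adjusted p = 0.00656). In females it was 0.66 ± 0.38 and did not pass (adjusted p = 0.311).

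Ccl7, a further Ccr2 ligand that also binds other CC receptors, measured 1.07, 1.31 and 1.81 CPM in normoxic males and 4.90, 2.19 and 6.32 in hypoxic males. Female values were 2.00, 2.40 and 2.10 in normoxia and 1.84, 1.37 and 2.03 in hypoxia. The male groups did not overlap, the second hypoxic library was the nearest to normoxia, and the female groups overlapped. Ccl7 rose in males by 1.67 ± 0.37 (adjusted p = 0.0138), a call lost without male normoxia library 1 or male hypoxia library 3 and without male hypoxia libraries 2 and 3 together (adjusted p up to 0.0831). Averaged over the sexes it was 0.68 ± 0.26 and did not pass (adjusted p = 0.0697).

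Ccl12, a mouse Ccr2 ligand closely related to Ccl2, measured 1.38, 0.979 and 1.04 CPM in normoxic males and 4.30, 3.57 and 6.78 in hypoxic males. In females it measured 1.42, 2.46 and 1.05 in normoxia and 1.30, 2.03 and 1.67 in hypoxia. Every hypoxic male library exceeded the other 9 libraries. It rose 4.30-fold in males (2.10 ± 0.37, adjusted p = 0.00549), and the female log2 fold change was 0.02 with a 95% interval from -0.77 to 0.81.

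Ccl8, a CC chemokine that attracts monocytes and T cells, had the largest male fold change of the members. It measured 0.566, 0.163 and 0.907 CPM in normoxic males, which is 9, 3 and 14 counts, and 5.50, 7.29 and 6.32 CPM in hypoxic males, or 83, 153 and 124 counts. Female values were 0.966, 0.760 and 0.123 CPM in normoxia and 0.888, 1.81 and 1.46 in hypoxia. The hypoxic male libraries lay above all others, and the female groups overlapped by 1 library on each side. The male rise was 11.7-fold (3.55 ± 0.61, adjusted p = 0.00536), with a 95% interval from 2.21 to 4.90. The female log2 fold change, 1.16 ± 0.60, did not pass (adjusted p = 0.259) and its interval ran from -0.16 to 2.48.

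In males, the calls for Ccl2, Ccl8 and Ccl12 held in each alternative except those without male hypoxia libraries 2 and 3, where the adjusted p reached 0.136, 0.144 and 0.131. With the filter of at least 1 CPM in 6 libraries, Ccl8 was not tested. Male hypoxia library 1 by itself exceeded every normoxic male library for all 3 genes.

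Ccl6 and Ccl9 are constitutive CC chemokines of macrophages and myeloid cells and ligands of Ccr1. Ccl6 measured 12.3, 17.4 and 12 CPM in normoxic males, 51.8, 47.4 and 37.4 in hypoxic males, 20.2, 29.6 and 23.4 in normoxic females and 21.9, 22.4 and 29.4 in hypoxic females. Hypoxic males were the highest group and normoxic males the lowest, with all female libraries between them. Ccl6 rose 3.27-fold in males (1.71 ± 0.20, adjusted p = 0.00122), whereas the female log2 fold change was 0.01 with a 95% interval from -0.42 to 0.43.

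For Ccl9 the male values were 7.99, 7.34 and 7.19 CPM in normoxia and 23.0, 24.3 and 17.4 in hypoxia. The female values were 15.3, 18.3 and 14.1 in normoxia and 11.5, 12.4 and 17.0 in hypoxia. As for Ccl6, normoxic males were lowest; the third hypoxic male library lay below the highest female library. Ccl9 rose 2.87-fold in males (1.52 ± 0.18, adjusted p = 0.00126), and the female value was -0.22 with an interval from -0.60 to 0.16. The male calls of Ccl6 and Ccl9 held in all 24 alternatives. Estimated counts of Ccl9 were fractional in all 12 libraries, as occurs when reads are shared out among alike transcripts, and its value is uncertain to that extent; those of Ccl6 were whole (within 0.01).

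Cxcl1, a neutrophil attractant, had 1.74 to 58.6 estimated counts per library. It measured 0.126, 0.816 and 1.17 CPM in normoxic males and 1.46, 1.81 and 2.19 in hypoxic males, with 1.22, 0.994 and 3.64 in normoxic females and 1.72, 1.75 and 1.67 in hypoxic females. The highest value came from female normoxia library 3, the one with the most immediate early RNA; their relation was not tested. The male log2 fold change, 1.37 ± 0.62, did not pass (adjusted p = 0.153), nor did the average (0.59 ± 0.43, adjusted p = 0.326). Its counts were fractional in 11 libraries.

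Cxcl10, an interferon-inducible attractant of activated T cells, had 1 to 19 counts per library. It measured 0.252, 0.272 and 0.583 CPM in normoxic males, 1.26, 0.429 and 0.969 in hypoxic males, 0.515, 0.468 and 0.0617 in normoxic females and 0.178, 0.274 and 0.468 in hypoxic females. The groups overlapped in both sexes. Tested without the filter on low counts, its averaged log2 fold change was 0.55 ± 0.50 (adjusted p = 0.573), so no difference was detectable at this depth.

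Cxcl12, the stromal ligand of Cxcr4 and Ackr3, was the member with the most reads, 1812 to 3662 counts per library. It measured 119, 140 and 167 CPM in normoxic males, 131, 120 and 187 in hypoxic males, 139, 106 and 133 in normoxic females and 145, 191 and 180 in hypoxic females. The male groups overlapped throughout, and the hypoxic females lay above the normoxic ones. The log2 fold change was 0.03 in males, with a 95% interval from -0.38 to 0.45, and 0.45 ± 0.19 in females (adjusted p = 0.173). With library totals in place of TMM the averaged value passed (adjusted p = 0.0285; 0.201 with TMM), on a scale where the median gene itself was up by 0.20.

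Cxcl16, made as a transmembrane scavenger receptor and chemokine and shed by Adam10 and Adam17, was the member called in each sex separately. It measured 10.6, 11.6 and 10.2 CPM in normoxic males, 14.2, 18.1 and 18 in hypoxic males, 10.4, 8.25 and 10.4 in normoxic females and 12.2, 17.5 and 18.8 in hypoxic females. The groups of each sex did not overlap, and library 1 was the lowest of both hypoxic groups. It rose by 0.69 ± 0.12 averaged (adjusted p = 0.00271), 0.64 ± 0.17 in males (1.56-fold, adjusted p = 0.0303) and 0.74 ± 0.17 in females (1.67-fold, adjusted p = 0.0341). The averaged call held in all 23 alternatives, but the male call was lost in 7 of 24 (adjusted p up to 0.492) and the female one in 9 of 24 (up to 0.157). A single library ended the male call for male normoxia 1, 2 or 3 and male hypoxia 2 or 3, and the female call for male normoxia 1 or 3, female normoxia 1 or 2 and female hypoxia 2 or 3.

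**Figure D2:**
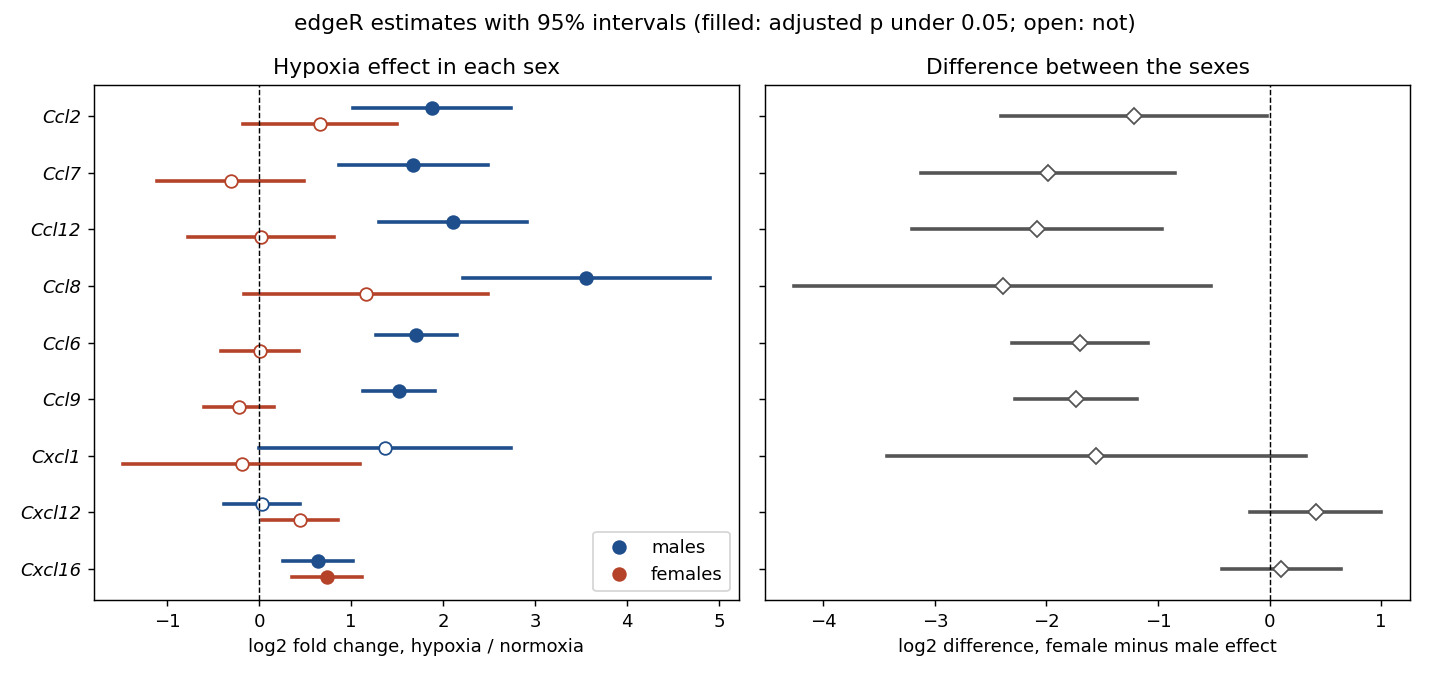
Log2 fold change of hypoxia over normoxia in males (blue) and females (red) on the left, and the female minus the male effect on the right, for the 9 tested genes with 95% intervals; filled points passed an adjusted p under 0.05. The 6 CC genes have male intervals above 0 and female intervals that include 0, and no point on the right is filled.

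Whether hypoxia acted differently in the sexes was tested directly as the female minus the male log2 effect. None of the 9 members passed, and 0.00716% of all genes did (1 gene). At an unadjusted p under 0.05 there were 6 members, Ccl2, Ccl6, Ccl7, Ccl8, Ccl9 and Ccl12, each with the larger rise in males; 3.97% of all genes had such a p in that direction. For Ccl9 the difference was -1.74 ± 0.25 (unadjusted p = 1.98e-05, adjusted p = 0.0973), and for Ccl6 it was -1.70 ± 0.28 (unadjusted p = 6.38e-05, adjusted p = 0.118). DESeq2 passed both, with adjusted p = 2.63e-06 for Ccl9 and 2.68e-05 for Ccl6, and edgeR without the low-count filter did so at 0.0272 and 0.0459. Ccl9 also passed without female hypoxia library 3 (adjusted p = 0.0424). The other 4 CC genes had differences of -2.08 ± 0.51 (Ccl12, adjusted p = 0.522), -1.98 ± 0.52 (Ccl7, 0.545), -2.39 ± 0.85 (Ccl8, 0.665) and -1.22 ± 0.54 (Ccl2, 0.73). Cxcl16 differed by 0.10, with a 95% interval from -0.43 to 0.64, and Cxcl12 by 0.41, from -0.18 to 1.00.

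Females and males were also compared at each oxygen level, in contrasts that share their libraries with those above. No member passed in normoxia, against 0.0716% of all genes, or in hypoxia, against 0.150%. In normoxia 3 members had an unadjusted p under 0.05, all higher in females (4.64% of all genes): Ccl9 by 1.08 ± 0.18 (adjusted p = 0.0798), Ccl6 by 0.81 ± 0.20 (adjusted p = 0.565) and Cxcl1 by 1.46 ± 0.63 (adjusted p = 0.676). In hypoxia 5 had an unadjusted p under 0.05, all lower in females: Ccl6, Ccl7, Ccl8, Ccl9 and Ccl12, at adjusted p from 0.155 to 0.247; 4.56% of all genes were lower at that cut. DESeq2 passed 2 members in normoxia and 3 in hypoxia, but its shares over all genes in these contrasts are not given here. For the difference between the sexes it passed 68 of all genes, against 1 with edgeR.

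Abundance between genes was compared on the deposited TPM scale, which is per transcript length. In normoxic males the order was Cxcl12 at 20.6 ± 3.22 TPM (SD, n = 3), Ccl6 at 9.83 ± 1.77, Ccl9 at 5.45 ± 1.79 and Cxcl16 at 3.33 ± 0.22, with no overlap between neighbours. Ccl12 (2.10 ± 0.35), Ccl2 (2.05 ± 0.88), Ccl7 (1.35 ± 0.36) and Ccl8 (1.10 ± 0.73) followed with overlapping ranges. In hypoxic males Ccl6 stood first at 43.6 ± 8.47 TPM and Cxcl12 next at 30.2 ± 7.42, in overlapping ranges. Ccl8 at 17.6 ± 4.64 and Ccl9 at 17.5 ± 3.02 came next and also overlapped, ahead of Ccl12 (12 ± 3.85) and Ccl2 (9.86 ± 3.99).

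Normoxic females had Cxcl12 at 19.8 ± 2.05 TPM and Ccl6 at 18.8 ± 4.71, which overlapped, then Ccl9 at 9.78 ± 0.39. Hypoxic females had 32.2 ± 6.36, 22 ± 5.52 and 9.95 ± 2.13 in the same order, with Cxcl16 at 7.03 ± 2.03, Ccl2 at 5.79 ± 0.23, Ccl12 at 3.93 ± 0.99 and Ccl8 at 3.61 ± 1.33. Cxcl1 and Cxcl10 had group means of 0.25 to 1.86 TPM and the lowest means over the 12 libraries (1.40 and 0.508). The effective length used for Cxcl10 ranged from 189 to 844 bases, so its TPM is unsteady. For hypoxia over normoxia, the median over all genes of the log2 ratio of group mean TPM was 0.40 in males and 0.18 in females. Changes are therefore read from the CPM fits.

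Summed over the 10 genes, male ligand abundance was 46.8 ± 2.71 TPM under normoxia and 147 ± 12.9 under hypoxia, and female abundance 64.1 ± 4.15 and 88.6 ± 17.2. Cxcl12 made up 38.6, 46.2 and 46.9% of that sum in normoxic males and 17.8, 18.7 and 24.7% in hypoxic males. In females its share was 34.6, 25.7 and 33.1% in normoxia and 35.4, 39.0 and 34.7% in hypoxia. Hypoxic and normoxic male shares lay far apart, whereas those of the female groups nearly met (34.6 and 34.7%).

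**Figure D3:**
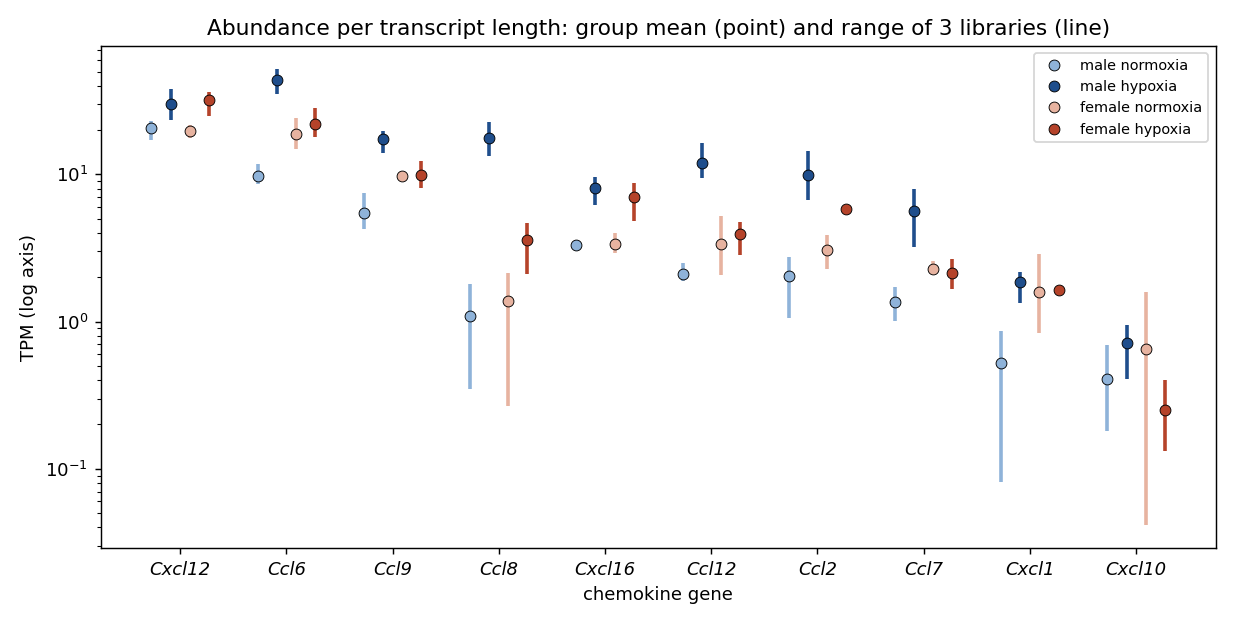
TPM of the 10 genes on a log axis, ordered by their mean over the 12 libraries; points are group means and lines the range of 3 libraries. Cxcl12 (25.7 TPM) and Ccl6 (23.6 TPM) lead on that mean. On the log axis, Ccl8 spans the widest range among the CC genes, 0.267 to 22.6 TPM.

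The members were not all alike across the 12 libraries. Likeness was measured as the mean absolute difference between the centred log2 CPM of a pair of genes. It was taken over 12790 genes, with predicted, Y-linked and immune receptor genes left out. A small value means that 2 profiles stay close, and genes that vary little also score low. The mean absolute deviation from its own mean was 0.349 for Cxcl16 and 1.25 for Ccl8, so their values below differ in scale. The closest pair of members was Ccl6 and Ccl9 at 0.192, and Ccl9 was also the closest of all genes to Ccl6. Plek (0.197) and Msr1 (0.217) followed for Ccl6, and Dse (0.209) and Cdh24 (0.210) for Ccl9. Ccl12 was closest to Msr1 (0.276), Tlr13 (0.302) and Bst1 (0.317), and Ccl8 to Clec4n (0.470), Ltbp2 (0.496) and Cthrc1 (0.543). For Ccl2 the list was Galnt6 (0.259), Rbm3 (0.297) and Ptprf (0.332), and for Cxcl16 it was Homer3 (0.0812), Bcar3 (0.0856) and Adamts10 (0.0918).

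Of 29 other chemokine ligands, 13 had enough reads to test, and in the average 4 rose and 3 fell (median -0.07). Beside this, 15.0% of all tested genes rose and 12.9% fell. Ppbp and Pf4, chemokines of platelet granules, rose by 2.41 ± 0.28 (adjusted p = 0.000435) and 1.19 ± 0.17 (adjusted p = 0.000909), and both passed in each sex. Platelet and megakaryocyte markers, a list that includes both genes, summed to 10.8 to 13 CPM in normoxic males, 30.0 to 40.7 in hypoxic males, 10.3 to 14.0 in normoxic females and 17.7 to 28.4 in hypoxic females. Cx3cl1, the endothelial ligand of Cx3cr1, rose by 0.81 ± 0.19 (adjusted p = 0.00913). Ccl4, a CC chemokine with 0 to 16 counts per library, rose by 2.40 ± 0.45 (adjusted p = 0.00362). Ccl11, an eosinophil attractant next to Ccl7 and Ccl12, fell by 1.72 on the log2 scale (adjusted p = 0.0126), whereas Ccl12 rose. Cxcl14 fell by 0.62 (adjusted p = 0.00886) and the interferon-inducible Cxcl9 fell by 0.89 (adjusted p = 0.0464). Without male hypoxia libraries 2 and 3, 3 rose and 1 fell; Cx3cl1, Ccl11 and Cxcl9 were lost, and of the platelet genes Pf4 alone then passed in males and Ppbp alone in females.

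Among 18 signalling chemokine receptors 7 were tested and 2 rose in the average, beside 15.0% of all tested genes. Cxcr4, the receptor of Cxcl12, measured 3.84, 4.57 and 4.53 CPM in normoxic males, 8.34, 10.4 and 10.4 in hypoxic males, 3.74, 3.04 and 2.90 in normoxic females and 8.47, 10.6 and 8.02 in hypoxic females. All 6 hypoxic libraries lay above all 6 normoxic ones, and the rise was 1.17 ± 0.17 in males (adjusted p = 0.00276) and 1.48 ± 0.17 in females (adjusted p = 0.00267). The averaged and female calls of Cxcr4 held in every alternative, and the male call was lost without male hypoxia libraries 2 and 3 (adjusted p up to 0.144). Ccr1, the receptor of Ccl6 and Ccl9, measured 1.32, 1.80 and 0.583 CPM in normoxic males and 3.71, 3.91 and 4.74 in hypoxic males, with 1.05 to 2.16 in normoxic and 1.89 to 2.71 in hypoxic females. It rose by 1.73 ± 0.38 in males (adjusted p = 0.0143) and had a female value of 0.50 ± 0.38 (adjusted p = 0.439). The difference between the sexes for Ccr1 did not pass (adjusted p = 0.73), and its averaged call was lost without male hypoxia libraries 2 and 3 (adjusted p up to 0.102). The male call of Ccr1 was lost there and also without male hypoxia library 3 alone (adjusted p up to 0.248).

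Ccr2, the receptor of Ccl2, Ccl7 and Ccl12, had means of 2.27 ± 0.63 CPM in normoxic and 3.72 ± 0.67 in hypoxic males, and 2.46 ± 0.63 and 2.39 ± 0.64 in females. Its male log2 fold change was 0.70 ± 0.30 (adjusted p = 0.124) and did not pass. Cxcr2, the receptor of Cxcl1, did not pass either (0.09 ± 0.26 averaged, adjusted p = 0.831). Cxcr6, the receptor of Cxcl16, had 2 to 14 counts per library, Cxcr3 had 0 to 6 and Ccr3 had 0 to 2. No read of Ccr8, a receptor of Ccl8 in mice, was counted in any library, which allows a level of up to 0.143 to 0.199 CPM per library, 3 counts in each; such limits cover counting error only.

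Atypical receptors bind chemokines without classical signalling. Ackr1, which carries chemokines on red cells and venular endothelium, rose by 2.12 ± 0.50 averaged (adjusted p = 0.00987) from 0 to 26 counts per library, and the call was lost without male hypoxia libraries 2 and 3 (adjusted p up to 0.138). Ackr3, the scavenger of Cxcl12, had 86.9 ± 23.5 CPM in normoxic and 88.1 ± 14.4 in hypoxic males and did not pass (averaged 0.22 ± 0.17, adjusted p = 0.337). Ackr2 was listed at 0 in 7 libraries and at 26.5 to 58.6 counts in 5, across all groups, and no fold is given. Ccrl2 fell by 1.11 on the log2 scale (adjusted p = 0.023), a call also lost without male hypoxia libraries 2 and 3. Erythroid markers, relevant to Ackr1, summed to 1094 to 1491 CPM in normoxic and 4600 to 8638 in hypoxic libraries; their part in that rise was not tested.

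**Figure D4:**
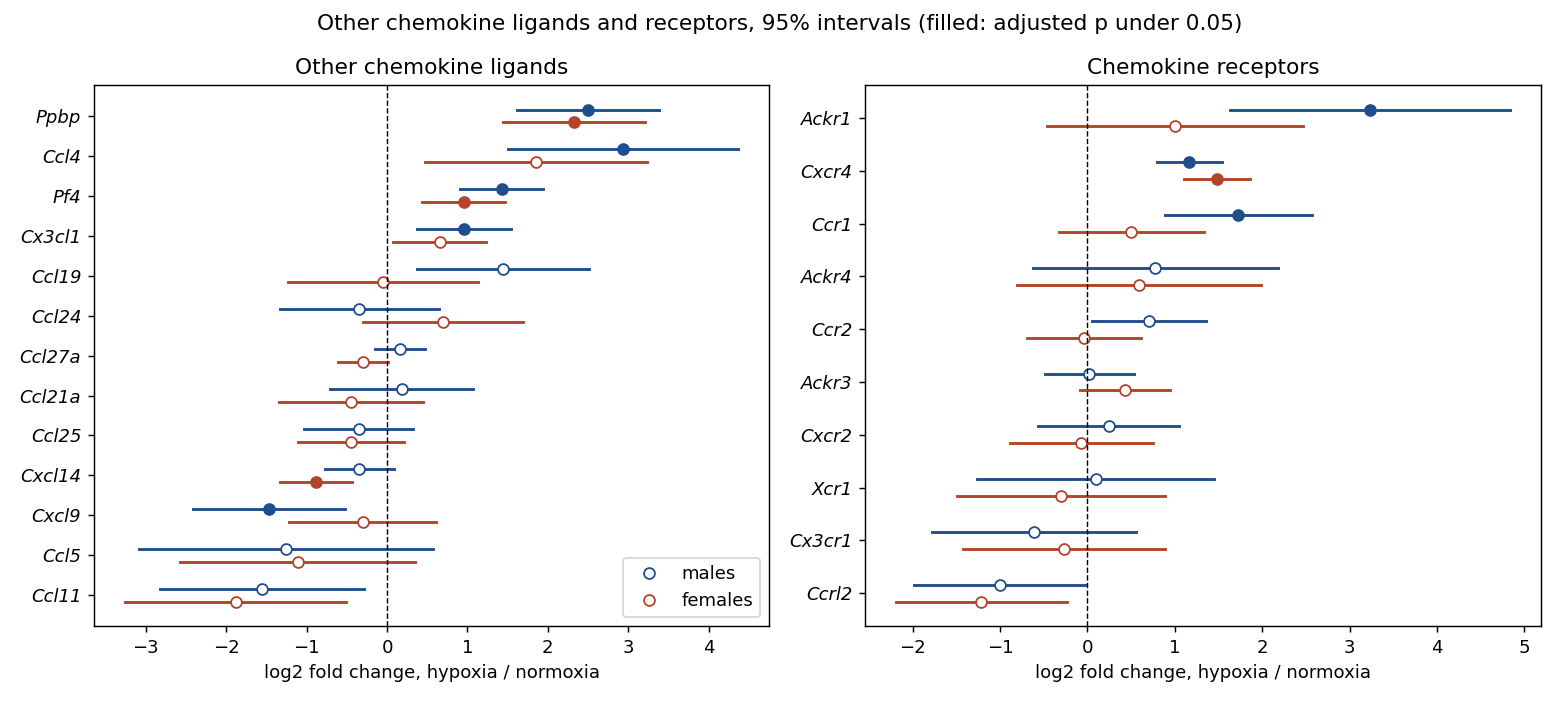
Log2 fold change of hypoxia over normoxia in males (blue) and females (red) with 95% intervals, for the other tested chemokine ligands on the left and tested receptors on the right, with Ackr2 and 1 other left off; filled points passed an adjusted p under 0.05. Ppbp, Pf4 and Cxcr4 are filled in both sexes, and Ccr1 and Ackr1 in males.

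Of 10 enzymes that cut or release chemokines 7 were tested and 4 rose in the average, beside 15.0% of all tested genes. They were Mmp14 (1.09 ± 0.15, adjusted p = 0.000791) and Mmp2 (0.83 ± 0.16, adjusted p = 0.00384), with the macrophage elastase Mmp12 (1.66 ± 0.35, adjusted p = 0.00604) and the sheddase Adam17 (0.28 ± 0.09, adjusted p = 0.0389). Of these, Mmp14 and Mmp12 also passed without male hypoxia libraries 2 and 3.

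Lists of genes upstream of chemokine transcription were also counted. For comparison, 15.0% of all tested genes rose and 12.9% fell in the average, and 8.47% rose in males and 3.97% in females. In the NF-kappaB list 7 of 18 rose, with a median of 0.27, among them Nfkb1 (0.32 ± 0.06, adjusted p = 0.0029), Ikbkb (0.27 ± 0.06, adjusted p = 0.00943), Bcl3 (0.82 ± 0.23, adjusted p = 0.0225) and the inhibitor Nfkbia (0.37 ± 0.11, adjusted p = 0.0248); 1 of the 18 rose in each sex alone. Without male hypoxia libraries 2 and 3, 2 rose and 1 fell. Of 13 tested cytokines and cytokine receptors that induce chemokines 5 rose, 4 of them being Tnfrsf1a (0.70 ± 0.11, adjusted p = 0.00127), Il1r1 (0.63 ± 0.12, adjusted p = 0.00391), Ifngr1 (0.46 ± 0.09, adjusted p = 0.00473) and Tnfrsf1b (0.49 ± 0.11, adjusted p = 0.00679), and 1 rose without those libraries. None of 16 interferon signalling and target genes rose or fell (median -0.20). Among 13 tested targets of the hypoxia-inducible factors, 1 rose, the lactate dehydrogenase gene Ldha (0.84, adjusted p = 0.000132), and 2 fell, Ankrd37 and Egln1.

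Markers of the cells that make or answer chemokines changed alongside the members. Their counts, here and in the next paragraph, stand beside 15.0% of all tested genes rising and 12.9% falling in the average. In males 8.47% of all tested genes rose, and in females 3.97%. Monocyte markers summed to 150 to 202 CPM in normoxic males, 350 to 403 in hypoxic males, 168 to 210 in normoxic females and 188 to 294 in hypoxic females, so that hypoxic males stood above every other library. Of 7 tested monocyte markers 5 rose in the average, with Ly6c2 at 0.78 ± 0.11 (adjusted p = 0.00112) and Lyz2 at 0.69 ± 0.12 (adjusted p = 0.0029). In males 5 also rose, but Ly6c2 was not among them. Ly6c2 was the 1 marker that rose in females. Fcnb was at 0 in 3 of the 4 groups. Without male hypoxia libraries 2 and 3 the averaged count was 3 and the male count 0. Macrophage markers overlapped between all groups in their sum, at 303 to 452, 380 to 456, 312 to 474 and 299 to 426 CPM in the same order. Of those 15 genes 4 rose in the average, including Cd68 (0.99 ± 0.20, adjusted p = 0.00514). The 1 that fell was Cd74, at -1.60 ± 0.18 (adjusted p = 0.000358).

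Neutrophil markers summed to 4.35 to 8.94, 10.5 to 26.2, 3.35 to 10.4 and 3.70 to 5.81 CPM in that order; none of 4 tested passed in the average and 1 (S100a8) did in males, with Camp at 0 in both normoxic groups. B cell markers were lower in hypoxic males, at 3.05 to 3.53 CPM against 10.6 to 14.4 in normoxic males, and 3 of 5 fell in the average. Endothelial markers summed to 837 to 1150 CPM in normoxic and 1230 to 1650 in hypoxic libraries, and 7 of 9 rose. Fibroblast markers summed to 1661 to 2036 in normoxic and 1655 to 2304 in hypoxic libraries, and 5 of 9 rose. Adipocyte markers, at 552 to 1037 CPM in normoxic and 795 to 1224 in hypoxic libraries, had Plin1 at 0 in every group. Of 4 tested adipocyte markers 1 rose in the average, Fabp4 (0.56 ± 0.15, adjusted p = 0.0155), and the others did not pass. Without male hypoxia libraries 2 and 3, 4 endothelial and 1 fibroblast markers rose and 1 B cell marker fell. The part of these cell types, and of atrial tissue, in the chemokine changes was not tested.

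**Figure D5:**
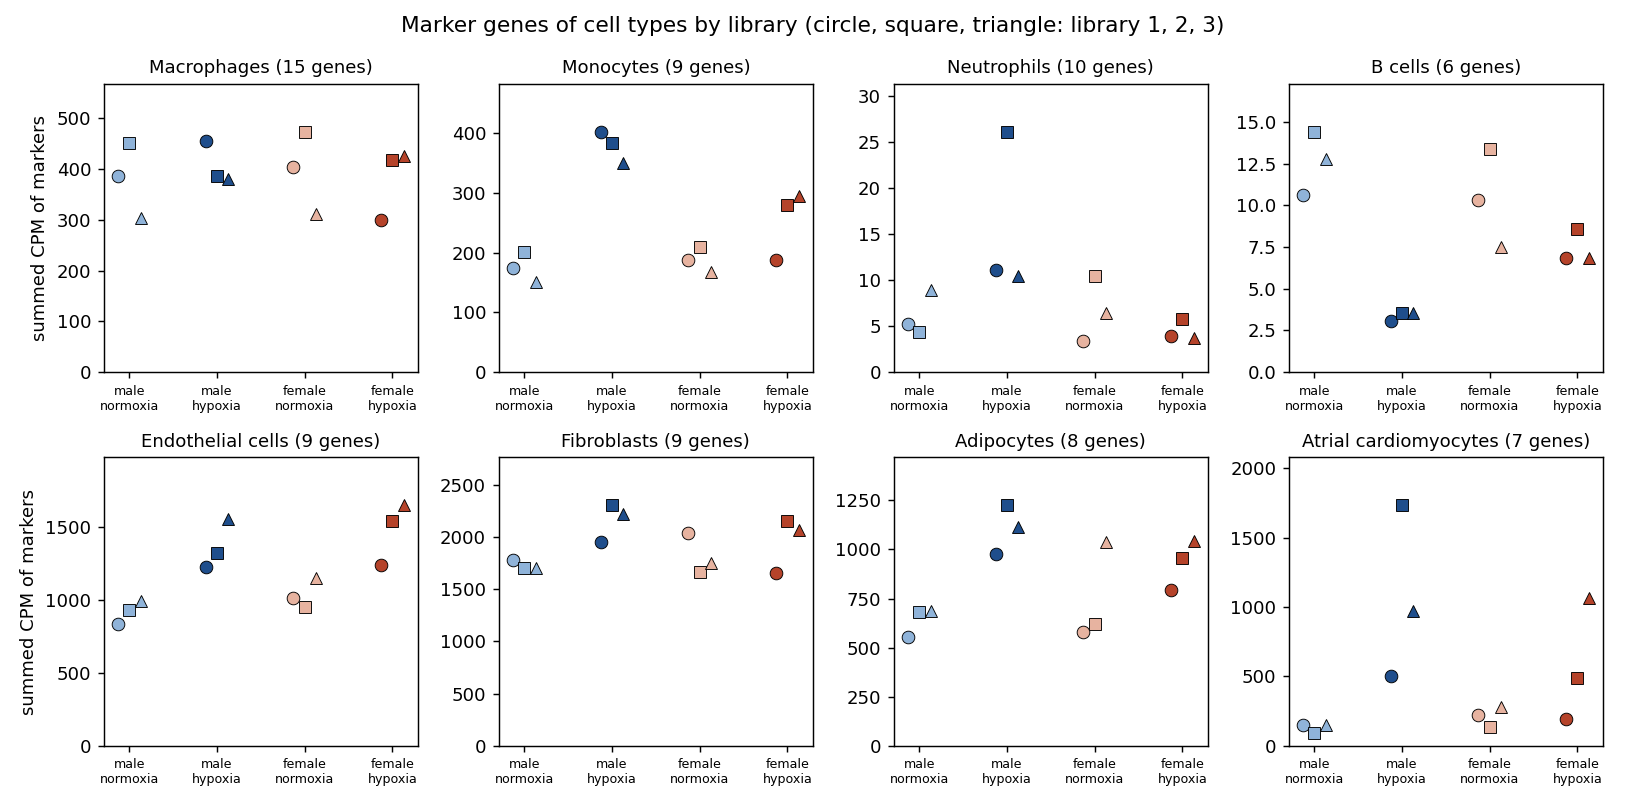
Summed CPM of marker genes of 8 cell types in each library, by group; symbols are libraries 1, 2 and 3 and each axis starts at 0. Monocyte markers reach 350 to 403 CPM in hypoxic males and at most 294 elsewhere, while macrophage sums overlap between groups.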

How the data were processed

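RNA sequencing of 12 ventricular libraries was quantified by the authors. Per the submitters' processing notes, FastQC, Salmon and GRCm39 were used (versions, annotation release and strand setting: not given in the sources used here). A directional mRNA kit was used, per the labels' protocols. Per the file headers, the deposited table holds an estimated count, an abundance in TPM and an average effective transcript length for each gene and library; columns without a matching sample numbered 0.

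Estimated counts were rounded. After edgeR's filterByExpr on the 4 groups, 13960 of 39210 genes were scaled by TMM and fitted with a group-means model on all 12 libraries (8 residual degrees of freedom; edgeR 4.0.16, glmQLFTest, two-sided; R 4.3.3). A symbol was missing for 269 genes. Standard errors came from the log2 fold change and F statistic; a gene passed at a Benjamini-Hochberg adjusted p under 0.05. The fit was tested on simulated data. The depth per library was 14915800 to 19397900 counts. Alternatives used DESeq2 1.42.0, limma 3.58.1 (voom), other scalings and filters, a length offset, a replicate block and left-out libraries. The members and gene lists were chosen with earlier results of these data known. Named were the 10 members, their main receptors (1 is not reported here), other ligands that passed (up to 8), up to 4 genes of each pathway list and up to 2 of each cell type list by smallest averaged p, and, for each member that passed in the average, the 3 genes of most similar profile; Ccrl2, Ankrd37, Egln1 and markers named only as at 0 were added after their values were seen. No library pair was a duplicate: the smallest chi-square per degree of freedom between libraries of a group was 7.52. Gene names, promoter sequences and neighbours came from RefSeq tables of GRCm38, another build than the authors'.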

Additional observations from a re-analysis of the deposited data

How the results depend on the processing

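Member counts were recomputed under every alternative. Averaged over the sexes, 6 members rose with TMM and edgeR, 5 rose without male hypoxia libraries 2 and 3, 8 with library totals only (Ccl7 and Cxcl12 added), 7 without male hypoxia library 2 (Ccl7 added), and 5 with at least 1 CPM in 6 libraries, which leaves Ccl8 untested. In males the count was 7, 5 without male normoxia library 1 or male hypoxia library 3 (Ccl7 and Cxcl16 lost), 6 without male normoxia library 2 or 3 or male hypoxia library 2, 6 with that stricter filter, and 2 with male hypoxia libraries 2 and 3 left out, alone or together with female normoxia library 3. In females it was 1, and 0 with only the compared libraries or in both of those settings; leaving out 1 library at a time gave 0 to 1. For the difference between the sexes it was 0, with 2 by DESeq2, 2 without the filter and 0 to 1 on leaving out 1 library. DESeq2 passed 2 members for sex in normoxia and 3 in hypoxia, where edgeR passed 0. Its shares over all genes in these contrasts are not given here, so those counts cannot be judged against a background. Over all genes, the averaged count fell from 3896 to 1295 without male hypoxia libraries 2 and 3 (2329 with female normoxia library 3 also left out), the male count from 2174 to 66 (176), and the female count from 836 to 40 with only the compared libraries, against 1693 by DESeq2; DESeq2 passed 68 genes for the difference between the sexes, edgeR 1. In either direction, the averaged count over all genes was 4800 with library totals only and 3208 without male hypoxia library 2. Of the 4800, 86.7% were up, against 53.9% with TMM. With at least 1 CPM in 6 libraries it was 3841 averaged and 2197 in males. Without the filter, 6 of all genes passed for the difference between the sexes. On leaving out 1 library the male count was 877 to 3036 and the female 55 to 2081, the highest without female hypoxia library 1. The cause was not tested. The log2 ratio of group means in CPM was 0.86 for Ccl6, 0.54 for Cxcl10, 0.24 for Cxcl12 and 0.69 for Cxcl16, against 1.19, -0.29, 0.62 and 1.17 in TPM, so Cxcl10 changed sign between the scales.

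Deviations of libraries with the same replicate number correlated at -0.0454 to 0.186, over 0.1 in 1 of 18 pairs. That pair was library 1 of male hypoxia and library 1 of female hypoxia. With different numbers they correlated at -0.138 to 0.0879, over 0.1 in 0 of 36 pairs. All these correlations were small, and whether libraries belong together by number was not tested. With the replicate number as a block, 6 members rose in the average, 7 in males and 1 in females. Genes with few counts (Cxcl1, Cxcl10, Ccl8 in normoxia) are limited by depth.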
